A study of Saccharomyces cerevisiae with 28 samples.

Results

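The general stress response genes described here were 10 genes of Saccharomyces cerevisiae chosen by name, HSP12, STF2, DDR2, HOR7, SPI1, CTT1, GRE3, GAD1, SOL4 and MSC1, out of 7125 genes in a table of RPKM, a read count divided by the length of the gene and by the size of the library. All 10 were found by their systematic names and none was removed by a filter. RNA had been sequenced from 8 strains, 2 cultures each: acs2-ts, carrying an allele of the acetyl-CoA synthetase gene ACS2, with its own wild type, WT_acs2; the mutants sam1, ser33 and shm2, named for genes of S-adenosylmethionine synthesis, serine synthesis and serine-to-glycine conversion, with BY4741 as their wild type; and the mutant pyk1, with its own wild type, WT_pyk1. The medium was YPD, which is rich and holds glucose, and all libraries were stranded and depleted of ribosomal RNA. The culture replicates bore the numbers 1 and 3 in acs2-ts, sam1 and WT_pyk1, the numbers 1 and 2 in WT_acs2, shm2 and pyk1, and the numbers 2 and 3 in ser33 and BY4741, and the values of a strain's cultures are given in that order. For all strains except pyk1 and WT_pyk1, 2 libraries had been made from the RNA of each culture and were averaged on the log2 scale, so n is 2 cultures per strain throughout. The labels gave no growth temperature and no name for the pyk1 allele, and nothing states that the cultures of a strain came from separate colonies.

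Yeast cells meet many unlike insults, among them heat, osmotic shock, oxidants and the end of glucose, with a shared programme. Its main activators are the zinc finger proteins Msn2 and Msn4, which protein kinase A keeps out of the nucleus while glucose is plentiful and growth is fast, and which bind the stress response element, AGGGG, in promoters once that kinase is quiet. The same signals act in the opposite way on the genes for ribosomes and their assembly, so the programme is widely read as a gauge of how fast a culture was growing. The 10 genes fall into small protective proteins (HSP12, STF2, DDR2, HOR7), a cell wall protein (SPI1), enzymes (CTT1, GRE3, GAD1, SOL4) and MSC1, whose function is not well known.

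The stress response element was looked for in the 500 bases before the start codon of each gene in the RefSeq R64 sequence, the assembly that the build name sacCer3 stands for. The letters searched were AGGGG and, for the other strand, CCCCT. All 10 promoters held at least 1 match, 7 held at least 2 and 4 held at least 3. Among 6005 protein-coding genes the shares with at least 1, 2 and 3 matches were 34%, 8.13% and 1.83%. HSP12 held 5 matches, DDR2 held 4, CTT1 and SPI1 held 3 each, HOR7, MSC1 and STF2 held 2 each, and GRE3, SOL4 and GAD1 held 1 each. The stretches below, written 5′ to 3′ along the gene's own strand with each match in capitals, are shown for the genes on which the results turn most, from the crowded promoter of HSP12 to the single match of SOL4. Each is the stretch of at most 200 bases with the most matches, ending more than 100 bases before the start codon, so it leaves out 2 of the 5 matches of HSP12 and 1 each of those of DDR2 and CTT1.
HSP12 promoter, chrVI:106811-106893, plus strand: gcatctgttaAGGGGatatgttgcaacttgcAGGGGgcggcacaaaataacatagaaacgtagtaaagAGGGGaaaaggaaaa
DDR2 promoter, chrXV:231916-232013, minus strand: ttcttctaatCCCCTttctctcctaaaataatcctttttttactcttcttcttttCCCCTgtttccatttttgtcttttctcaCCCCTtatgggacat
HOR7 promoter, chrXIII:774369-774515, plus strand: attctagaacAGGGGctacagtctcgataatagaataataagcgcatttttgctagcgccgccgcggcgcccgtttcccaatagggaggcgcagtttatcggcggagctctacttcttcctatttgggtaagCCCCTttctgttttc
CTT1 promoter, chrVII:654246-654285, plus strand: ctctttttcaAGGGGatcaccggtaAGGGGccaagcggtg
SOL4 promoter, chrVII:985836-985860, plus strand: aaaaaatcccCCCCTaagcagcgaa
A match is a description of these letters and does not show that Msn2 or Msn4 bound there in these cultures. The number of matches did not order the genes by how widely they varied: over the 16 cultures SOL4, with 1 match, spanned 16.1-fold and HSP12, with 5, spanned 5.24-fold.

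The spacing of low values put the reads behind a library at 4290000 to 36200000, with a median of 14675000, and at that scale the reads behind a single member in a single library were 204 (DDR2) to 46829 (MSC1), so counting error was at most 7%. SAM1 was at 0.2 and 0.3 RPKM in sam1, against 33.8 and 87.5 RPKM in BY4741; SER33 was at 0.32 and 0.28 RPKM in ser33, against 28.9 and 35 RPKM in BY4741; and SHM2 was at 0.21 and 0.15 RPKM in shm2, against 124 and 315 RPKM in BY4741. ACS2 was at 556 and 505 RPKM in acs2-ts, against 247 and 218 RPKM in WT_acs2, and CDC19, the gene of pyruvate kinase 1, was at 3896 and 4147 RPKM in pyk1, against 4073 and 3162 RPKM in WT_pyk1, so the amount of RNA does not check those labels. MET17 and LEU2, which BY4741 lacks, were at 0.53 RPKM or below in all 16 cultures, whereas URA3, also missing from BY4741, was at 296 and 284 RPKM in acs2-ts and at 57.8 and 55.6 RPKM in WT_acs2. HIS3, of which BY4741 keeps part, was at 22.7 and 17.9 RPKM in acs2-ts and at 67.7 and 53.2 RPKM in WT_acs2. It was at 47.8 and 56.2 RPKM in BY4741 and between 42.9 and 71.6 RPKM in sam1, ser33, shm2, pyk1 and WT_pyk1. For some members the second library stood on the same side of the first in nearly every culture: HOR7 was higher in the second library in 12 of 12 cultures, at a median of 1.23-fold, HSP12 in 11 of 12, at a median of 1.21-fold, and SPI1 was lower in 11 of 12, at a median of 0.92-fold. No member overlapped another annotated gene or had a copy of at least 95% identity over at least 80% of its length.

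HSP12 (YFL014W; chrVI:107256-107585, 1 exon of 330 coding bases) encodes a small heat shock protein that settles on membranes and protects them. It was the most abundant member in 9 of 16 cultures, HOR7 being so in the other 7, with 2486 and 2795 RPKM in acs2-ts, against 1581 and 995 RPKM in WT_acs2. It stood at 721 and 622 RPKM in sam1, 2140.4 and 2000.1 RPKM in ser33 and 741 and 2335 RPKM in shm2, against 2551 and 875 RPKM in BY4741. It stood at 3262 and 2663 RPKM in pyk1, against 2472 and 2904 RPKM in WT_pyk1. Both sam1 cultures were below every other culture, and pyk1, WT_pyk1 and acs2-ts, the 3 highest strains, overlapped each other in turn. BY4741 and shm2 had one culture each near the level of ser33 and one near that of sam1.

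STF2 (YGR008C; chrVII:508110-508364, 255 coding bases on the minus strand) encodes a small hydrophilic protein that helps cells survive drying. Its level was 634 and 563 RPKM in acs2-ts, against 1007 and 946 RPKM in WT_acs2. In the BY4741 family it was 239.7 and 386 RPKM in sam1, 944 and 946 RPKM in ser33 and 273 and 517 RPKM in shm2, against 792 and 353 RPKM in BY4741. In pyk1 it was 275 and 317 RPKM, against 316 and 317 RPKM in WT_pyk1. WT_acs2 and ser33 led the order and did not overlap acs2-ts, the strain that came next, while acs2-ts, BY4741, shm2, WT_pyk1, sam1 and pyk1 each overlapped the strain that followed.

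DDR2 (YOL052C-A; chrXV:231570-231755, 186 coding bases on the minus strand) encodes a very small protein of uncertain function that many stresses induce. It had 369 and 373 RPKM in acs2-ts, against 419 and 281 RPKM in WT_acs2. The family of BY4741 had 111 and 102 RPKM in sam1, 521 and 477 RPKM in ser33 and 144 and 658 RPKM in shm2, against 865 and 235 RPKM in BY4741. It had 467 and 453 RPKM in pyk1, against 369 and 387 RPKM in WT_pyk1. The sam1 cultures were the 2 lowest of all, and BY4741 held both the highest culture of the series and the fourth lowest.

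HOR7 (YMR251W-A; chrXIII:774752-774931, 180 coding bases), a relative of DDR2 named for its response to high osmolarity, varied little within strains, by at most 1.39-fold between the cultures of any strain. Its level was 3059 and 3326 RPKM in acs2-ts, against 1386 and 1273 RPKM in WT_acs2. It was 752 and 763 RPKM in sam1, 1603 and 1563 RPKM in ser33 and 953 and 1301 RPKM in shm2, against 1411 and 1018 RPKM in BY4741. It was 1085 and 1070.3 RPKM in pyk1, against 981 and 1001 RPKM in WT_pyk1. The acs2-ts cultures stood above all others and the sam1 cultures below all others, with no overlap at either end of the order.

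SPI1 (YER150W; chrV:468370-468816, 447 coding bases) encodes a cell wall protein, anchored through a lipid, that accumulates as cells enter stationary phase. It was at 530.1 and 629 RPKM in acs2-ts, against 626 and 439 RPKM in WT_acs2, and the cultures overlapped. It was at 128 and 106 RPKM in sam1, 653 and 604 RPKM in ser33 and 119 and 469 RPKM in shm2, against 648 and 114 RPKM in BY4741. The low BY4741 culture lay between the sam1 cultures and the high one lay between the ser33 cultures. SPI1 was at 529.6 and 385 RPKM in pyk1, against 300.3 and 289.6 RPKM in WT_pyk1, without overlap.

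**Figure D1:**
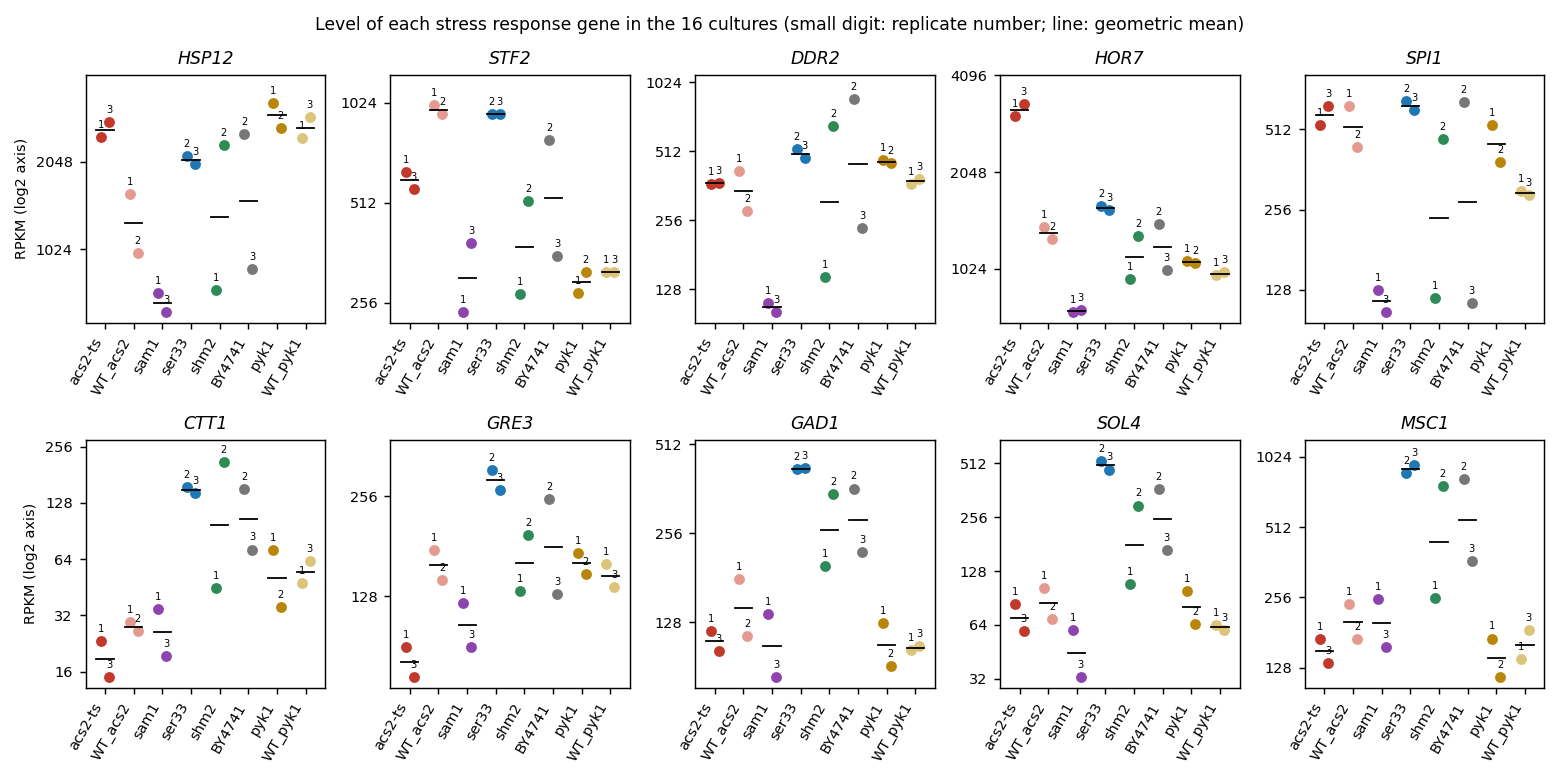
Level of each of the 10 stress response genes, in RPKM on a log2 axis, in the 16 cultures of 8 strains. Each point is a culture with its replicate number, and the line is the geometric mean of the strain's 2 cultures. The BY4741 and shm2 points lie far apart in most panels (SPI1 in BY4741, 648 and 114 RPKM), whereas the ser33 points nearly coincide (653 and 604 RPKM).

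CTT1 (YGR088W; chrVII:654634-656322, 1689 coding bases) encodes the cytosolic catalase, which breaks down hydrogen peroxide, and had the lowest median level of the 10, 46.5 RPKM over the 16 cultures. It was at 23.4 and 15 RPKM in acs2-ts, against 29.5 and 26.2 RPKM in WT_acs2. It was at 34.7 and 19.4 RPKM in sam1, 156 and 145 RPKM in ser33 and 45 and 212 RPKM in shm2, against 152 and 72.1 RPKM in BY4741. It was at 71.7 and 35.7 RPKM in pyk1, against 47.9 and 62.2 RPKM in WT_pyk1. Over the 8 strains only pyk1 and WT_acs2 were neighbours without overlap, and that gap set 5 strains apart from WT_acs2, sam1 and acs2-ts below them.

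GRE3 (YHR104W; chrVIII:323409-324392, 984 coding bases), an aldose reductase that also clears methylglyoxal, had 89.9 and 72.7 RPKM in acs2-ts, against 177 and 143 RPKM in WT_acs2. In sam1 it had 122 and 89.6 RPKM, in ser33 307 and 267 RPKM and in shm2 133 and 195 RPKM, against 251 and 129.6 RPKM in BY4741. In pyk1 it had 173 and 149.5 RPKM, against 160.3 and 136 RPKM in WT_pyk1. Both ser33 cultures exceeded the rest, and the acs2-ts and sam1 cultures, which overlapped, made up the low end.

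GAD1 (YMR250W; chrXIII:770801-772558, 1758 coding bases) encodes glutamate decarboxylase, the first step of a side route from glutamate to succinate. It had 119 and 102 RPKM in acs2-ts, against 178 and 115 RPKM in WT_acs2. It had 136 and 83.1 RPKM in sam1, 421 and 425 RPKM in ser33 and 198 and 348 RPKM in shm2, against 363 and 221 RPKM in BY4741. It had 127 and 90.7 RPKM in pyk1, against 103 and 106 RPKM in WT_pyk1. In RPKM as deposited, all 6 cultures of ser33, BY4741 and shm2 were above all 10 cultures of the other 5 strains, sam1 included. The rescaling described below would raise acs2-ts, so this split need not hold on that scale.

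SOL4 (YGR248W; chrVII:985972-986739, 768 coding bases), a 6-phosphogluconolactonase of the pentose phosphate pathway, varied most over the series. It was at 83.5 and 59.1 RPKM in acs2-ts, against 103 and 69.4 RPKM in WT_acs2. It was at 60.1 and 32.7 RPKM in sam1, 525 and 473 RPKM in ser33 and 109 and 298 RPKM in shm2, against 369 and 168 RPKM in BY4741. It was at 99.2 and 64.8 RPKM in pyk1, against 64 and 60.1 RPKM in WT_pyk1. As with GAD1, and again in RPKM as deposited, the 6 cultures of ser33, BY4741 and shm2 lay above the other 10.

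MSC1 (YML128C; chrXIII:15135-16676, 1542 coding bases on the minus strand), found through mutants with altered meiotic recombination, kept to the same split of 6 cultures above 10 in RPKM as deposited. It was at 169 and 134 RPKM in acs2-ts, against 240.5 and 169 RPKM in WT_acs2. It was at 251 and 157 RPKM in sam1, 873 and 948 RPKM in ser33 and 255 and 764 RPKM in shm2, against 819 and 365 RPKM in BY4741. It was at 171 and 117 RPKM in pyk1, against 139 and 186 RPKM in WT_pyk1. The highest and lowest cultures, from ser33 and pyk1, differed 8.13-fold.

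The members thus did not share 1 order of strains. Taken one at a time against the mean of the other 9 over the 16 cultures, Pearson's r ran between 0.34 for HOR7 and 0.89 for SOL4, with HSP12 at 0.47 and STF2 at 0.58. These values are a description: the points share libraries, depth and strain. Like the strain orders above, they rest on RPKM as deposited. The rescaling described below for acs2-ts divides each library by a factor. That factor was 0.318 to 0.414 in acs2-ts and 0.967 or more in the other strains. Rescaling thus raises acs2-ts against the rest, and the strain orders were not drawn up again on that scale.

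Much of the spread lay between cultures of the same strain. Replicate 2 of BY4741 exceeded replicate 3 for 10 of 10 members, and 7 of the 10 differed at least 2-fold, against 3.44% of the 6369 genes with a mean of at least 1 RPKM. Replicate 2 of shm2 exceeded replicate 1 for 10 of 10 members, and 6 of the 10 differed at least 2-fold, against 5.18% of those genes. The largest gaps were 5.63-fold for SPI1 in BY4741 and 4.64-fold for CTT1 in shm2, on the scale of log2(RPKM + 1). On that scale none of the 10 reached 2-fold between the cultures of any other strain, CTT1 in pyk1 coming nearest at 1.98-fold, or 2.01-fold in RPKM itself. The share of all genes that reached 2-fold was 0.408% in acs2-ts, 0.377% in WT_acs2, 4.08% in sam1, 0.455% in ser33, 2.65% in pyk1 and 0.769% in WT_pyk1. With 1 culture on each side these gaps carry no test, and in RNA from a whole culture a larger share of responding cells cannot be told apart from more RNA in every cell.

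**Figure D2:**
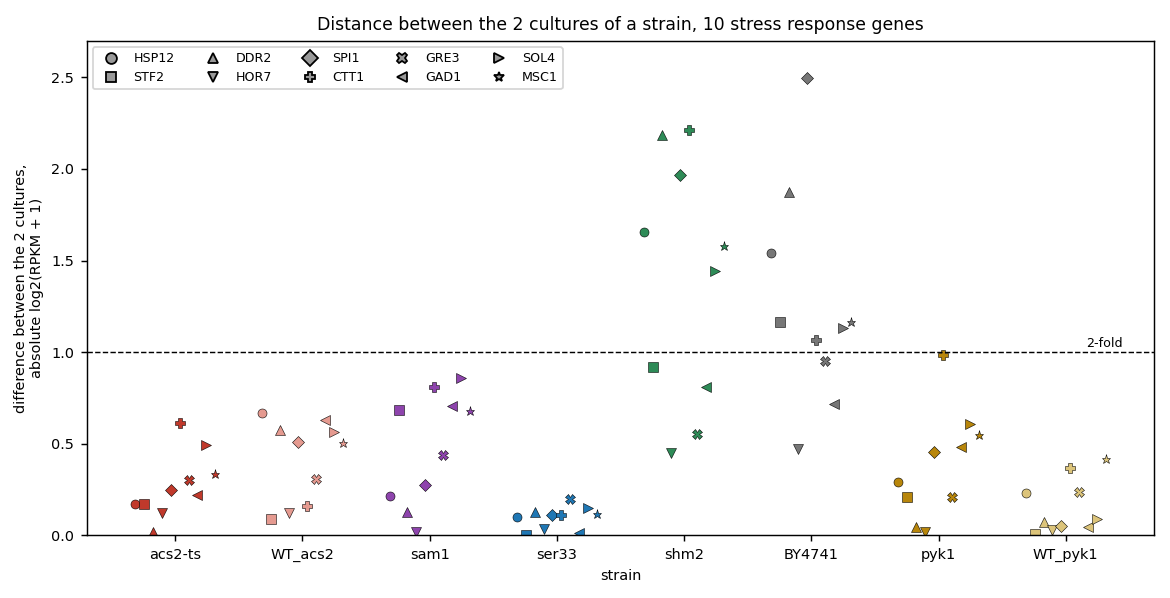
Distance between the 2 cultures of each strain for the 10 genes, as the absolute difference in log2(RPKM + 1), with 1 marker shape per gene. The dashed line marks 2-fold, which 7 genes passed in BY4741, 6 in shm2 and 0 in the other 6 strains.

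Averaged over the 10 genes, log2(RPKM + 1) put 4 cultures at the top: both of ser33, at 9.31 and 9.24, replicate 2 of BY4741, at 9.25, and replicate 2 of shm2, at 9.04. Replicate 1 of WT_acs2 came next, at 8.36, and replicate 3 of BY4741 stood ninth of 16, at 7.99. The lowest 3 were replicate 1 of shm2, at 7.66, and the cultures of sam1, at 7.39 and 7.05. The mean in acs2-ts was 8.16 and 8.0, against 8.36 and 7.94 in WT_acs2, and in pyk1 it was 8.25 and 7.90, against 7.91 and 7.99 in WT_pyk1. This order, too, rests on RPKM as deposited. The rescaling described below would raise both acs2-ts cultures against all others, and the order was not drawn up again on that scale.

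Genes outside the 10 moved with them inside BY4741 and shm2. Of 50 further stress-responsive genes, 49 were higher in replicate 2 of shm2 than in replicate 1, 20 of them at least 2-fold, and 49 were likewise higher in replicate 2 of BY4741 than in replicate 3, 20 of them at least 2-fold. All 26 ribosome biogenesis genes went the other way in both strains, with a median difference of -0.85 (log2, replicate 2 minus replicate 1) in shm2 and of 0.83 (replicate 3 minus replicate 2) in BY4741. The 137 genes for ribosomal proteins were all lower in replicate 2 of shm2, and 136 of them were lower in replicate 2 of BY4741. The sam1 cultures also differed in opposite directions. Replicate 3 of sam1 was below replicate 1 for 8 of 10 members and 41 of 50 further stress genes (median -0.36). It was above replicate 1 for 136 of 137 ribosomal protein genes (median 0.63) and 17 of 26 ribosome biogenesis genes (median 0.18). In WT_acs2, ser33 and acs2-ts most genes of these lists moved the same way. The higher-numbered replicate was lower for 10, 7 and 6 of 10 members and 48, 37 and 33 of 50 further stress genes. It was also lower for 26, 24 and 17 of 26 ribosome biogenesis genes and 96, 127 and 99 of 137 ribosomal protein genes. In pyk1 and WT_pyk1 the 2 ribosome lists leaned opposite ways. Of 15 chaperone genes that mostly follow the heat shock factor Hsf1, 11 were higher in replicate 2 of shm2 and 11 in replicate 2 of BY4741. The list of 24 regulators, which holds MSN2 and MSN4 themselves, went both ways: 13 were higher and 11 lower in replicate 2 of shm2 than in replicate 1, 17 were higher and 7 lower in replicate 2 of BY4741 than in replicate 3, and 0 differed 2-fold in either strain. The following 4 were chosen after their values were seen. MSN2 was at 41.5 and 38.2 RPKM in shm2 and at 34.9 and 34.3 RPKM in BY4741, whereas MSN4, at 80.5 and 100.5 RPKM in shm2 and 109 and 82.8 RPKM in BY4741, was higher in the same cultures as the members. So was the kinase gene YAK1, at 73.8 and 127 RPKM in shm2 and 146 and 100 RPKM in BY4741. RAS1, at 44.6 and 27.6 RPKM in shm2 and 17.5 and 27 RPKM in BY4741, was lower in those cultures. How far these cultures differed in density or growth rate at harvest was not tested.

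**Figure D3:**
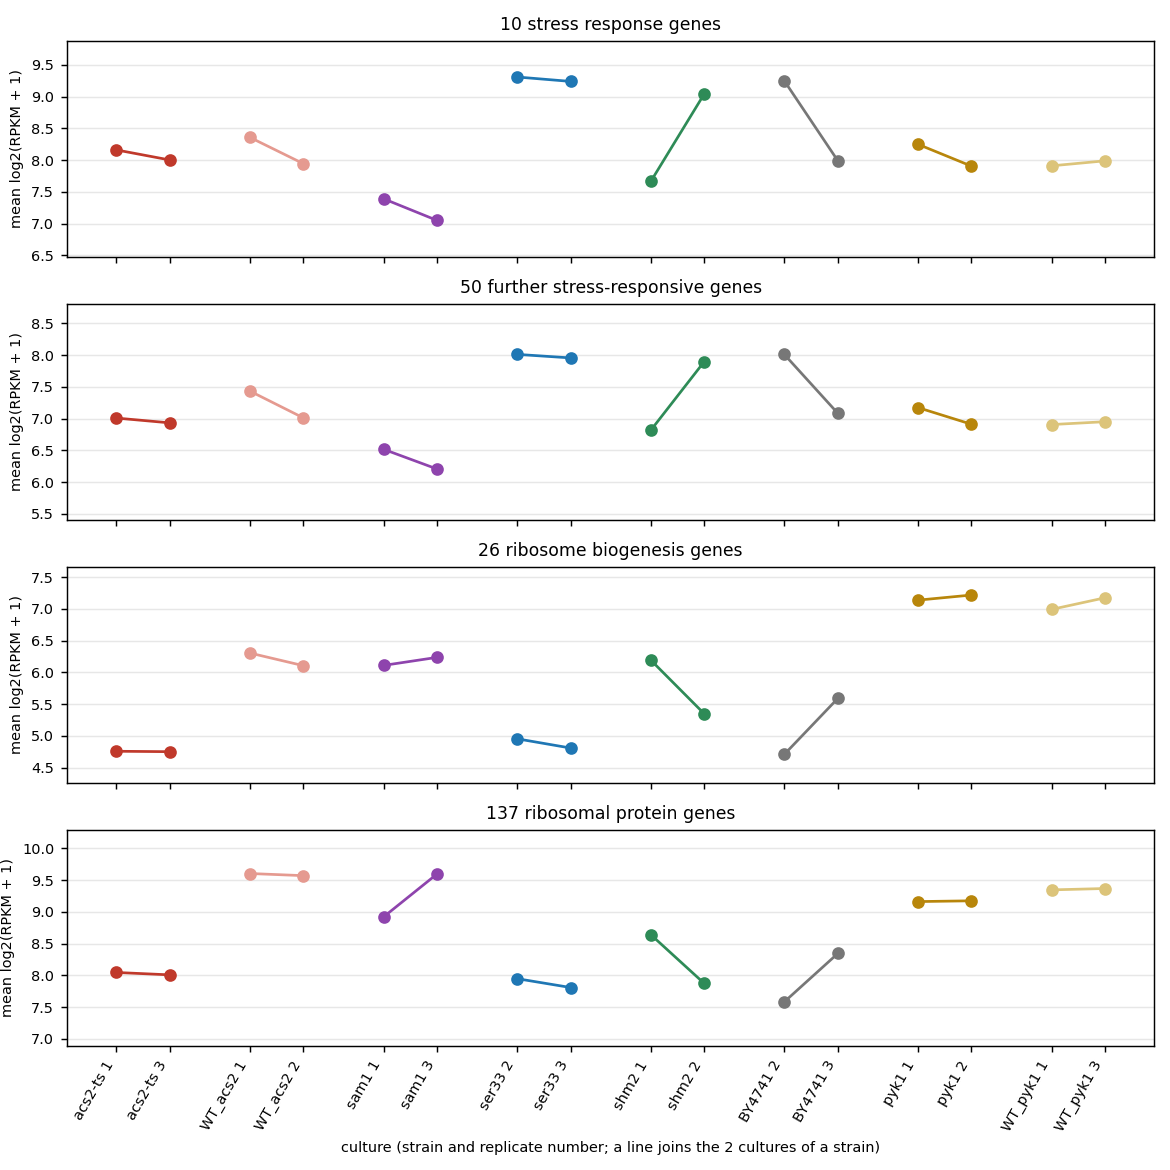
Mean log2(RPKM + 1) of the 10 stress response genes, of 50 further stress-responsive genes, of 26 ribosome biogenesis genes and of 137 ribosomal protein genes in each culture, with a line joining the 2 cultures of a strain. In shm2 and BY4741 the top 2 panels and the bottom 2 panels tilt in opposite directions (10 genes in BY4741, 9.25 and 7.99, and ribosome biogenesis genes, 4.71 and 5.59). They also do so in sam1 (10 genes, 7.39 and 7.05, and ribosomal protein genes, 8.92 and 9.60). In WT_acs2 all 4 panels tilt the same way (10 genes, 8.36 and 7.94, and ribosome biogenesis genes, 6.31 and 6.11). All 4 panels are nearly level in ser33.

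Mutants and their wild types were compared by limma on log2(RPKM + 1), with Benjamini-Hochberg adjustment over all 7125 genes and a threshold of 0.05. In acs2-ts the members split. HOR7 rose by 1.26 ± 0.12 (log2, SE), which is 2.4-fold (adjusted p = 0.000238), and HSP12 rose by 1.07 ± 0.23, 2.1-fold (adjusted p = 0.0061). GRE3 fell, at -0.97 ± 0.16 (adjusted p = 0.00182), and so did STF2, at -0.71 ± 0.12 (adjusted p = 0.00169), whereas median-of-ratios scaling put both above 0. With all 8 strains in 1 model the calls of HSP12 (limma, adjusted p = 0.0829) and STF2 (adjusted p = 0.0973) ended and those of HOR7 and GRE3 held, beside 4.42% of all genes called higher and 74.9% lower. The other 6 did not pass: CTT1 was at -0.55 ± 0.22 (adjusted p = 0.0616) and MSC1 at -0.42 ± 0.20 (adjusted p = 0.103), and GAD1, SOL4, DDR2 and SPI1 were between -0.37 and 0.14. Over all genes 5.7% were called higher and 78.1% lower, beside 2 and 2 of the 10 members. The cultures did not overlap for 6 members, 2 higher and 4 lower, where 7.56% of all genes were higher and 82.2% lower without overlap.

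The whole table was shifted in acs2-ts. The median log2 fold change over all genes in acs2-ts was -1.27, and all 10 members lay above it. When each library was rescaled by the median of its ratios to all libraries, the median over all genes became 0.03, all 10 members were called higher, where 28.5% of all genes were called higher and 21.9% lower, and the 6 that had been below 0 changed sign. HOR7 then stood at 2.78, HSP12 at 2.59, SPI1 at 1.66, DDR2 at 1.63, SOL4 at 1.24, GAD1 at 1.14, MSC1 at 1.09, CTT1 at 0.92, STF2 at 0.81 and GRE3 at 0.54. The members stood in the same order on both scales, and the direction of those 6 changed with the scaling. In relation to the actin gene ACT1 the 10 kept the directions of the deposited scale, with the same 4 calls and a median over all genes of -1.17. Which scale reflects RNA per cell was not tested, and the growth temperature is unknown for these cultures.

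Other lists in acs2-ts also followed the scale. As deposited, 22 of 24 regulators were called lower and none higher (median -1.18), led by TPK3 (-2.35) and RAS1 (-2.33), both of the protein kinase A pathway, and MSN4 (-1.75); after rescaling, 13 were higher and 4 lower. Of the 50 further stress genes 7 were higher and 18 lower (median -0.24), among them the thioredoxin gene TRX2 (-1.46), the cytochrome c gene CYC7 (-1.16) and the glucokinase gene GLK1 (1.11), and 43 were higher after rescaling. The chaperones had 1 higher and 12 lower, with the largest changes in HSP10 (-1.78), YDJ1 (-1.34) and SSE1 (-1.25); rescaling turned this to 11 higher and 0 lower. Glucose-repressed genes had 1 higher and 7 lower of 15, led by ACS1 (-1.20), CAT8 (-1.15) and MDH2 (-1.07), against 7 higher and 0 lower after rescaling. Ribosome biogenesis genes were lower in 25 of 26 (median -1.54), led by GAR1 (-2.05), RLP7 (-1.79) and UTP10 (-1.76), and ribosomal protein genes in 137 of 137 (median -1.56), led by RPS17B (-2.45), RPS10B (-2.31) and RPS25B (-2.23); rescaled, those lists had medians of -0.06 and -0.05.

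The mutants sam1, ser33 and shm2 were set against the same 2 BY4741 cultures, so their comparisons are not independent. In sam1 1 of the 10 stress genes passed the test. SOL4 fell by 2.46 on the log2 scale, at -2.46 ± 0.60 (adjusted p = 0.0465), which is 0.182 of the BY4741 level. The 9 others were also below 0 and did not pass: DDR2 was at -2.07 ± 0.84 (adjusted p = 0.119), CTT1 at -1.97 ± 0.76 (0.106), MSC1 at -1.46 ± 0.61 (0.127), GAD1 at -1.40 ± 0.39 (0.0559), SPI1 at -1.22 ± 0.93 (0.355) and HSP12 at -1.16 ± 0.67 (0.237). STF2 was at -0.80 ± 0.49, GRE3 at -0.79 ± 0.36 and HOR7 at -0.66 ± 0.23. Beside 0 and 1 members called, 8% of all genes were called higher and 8.29% lower. The sam1 cultures lay below both BY4741 cultures for 8 of 10 members, all but SPI1 and STF2, where 35% of all genes did. The members' median was -1.31, beside -0.03 over all genes.

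The size of that difference depended on which BY4741 culture was used. Without replicate 2 the members' median was -0.65 and SPI1 was at 0.03, and without replicate 3 it was -1.98. Fitting the 2 strains alone left 0 members and 0 of all 7125 genes called. Scaling to ACT1 left 0 members and 2 genes called. Using either library alone left 0 members called, beside 330 genes for the first and 424 for the second. Fitting all 8 strains in 1 model called 6 members lower and 0 higher, where 19.8% of all genes were called lower and 20.1% higher. SOL4 kept its direction in each of these and with any 1 of the 4 cultures left out, between -3.03 and -1.90. Its call held in the 8-strain model but ended in the others named, and it did not hold with any 1 culture left out.

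Around the members in sam1, 7 of 50 further stress genes were called lower and 0 higher (median -1.11), led by the chaperone genes SSA4 (-2.69) and HSP42 (-2.48) and by CYC7 (-2.51). Hsf1-type chaperones had 8 of 15 lower and 0 higher (median -0.77), among them BTN2 (-2.47), STI1 (-2.05) and HSP82 (-1.88), and glucose-repressed genes had CAT8 (-1.99) and PCK1 (-0.85) lower of 15. Ribosome biogenesis genes had 5 of 26 higher (median 0.96), led by NSR1 (2.66), RLP7 (1.58) and UTP4 (1.53), and ribosomal protein genes 23 of 137 (median 1.27), led by RPS22B (2.96), RPS18B (2.55) and RPS9B (2.41), with 0 lower in either. Of the regulators 5 of 24 were higher and 0 lower (median -0.05), with RAS1 at 1.21, the 14-3-3 gene BMH1 at 0.90 and the phosphodiesterase gene PDE2 at 0.88. None of these calls held when the values were taken relative to ACT1, where 2 of all 7125 genes were called. The list medians were then -1.06 for further stress genes, -0.72 for chaperones and -0.70 for glucose-repressed genes. They were 1.00 for ribosome biogenesis genes and 1.31 for ribosomal protein genes. ACT1 itself was at 1096 and 1702 RPKM in the BY4741 cultures.

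**Figure D4:**
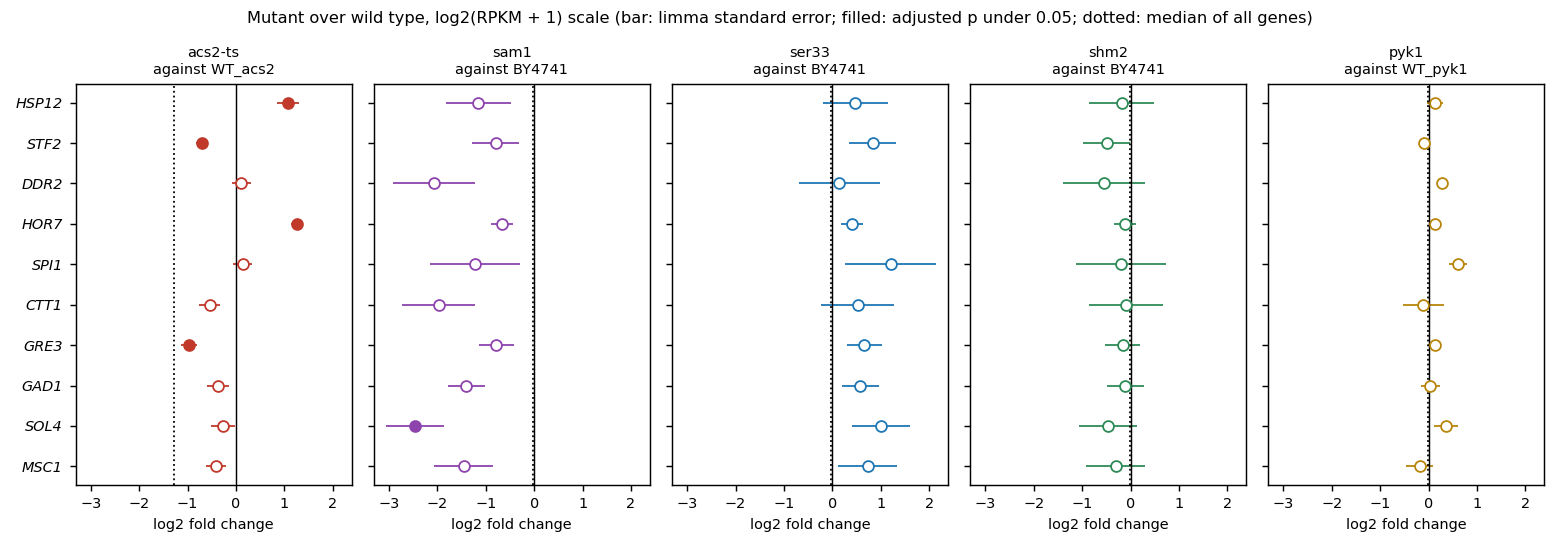
Log2 fold change of the 10 genes in each mutant over its wild type, on the log2(RPKM + 1) scale, with the limma standard error. Filled points passed an adjusted p of 0.05, and the dotted line is the median of all genes, which lies at -1.27 in acs2-ts and close to 0 in the other mutants. All points are left of 0 in sam1 and shm2 and right of 0 in ser33, but only SOL4 in sam1 is filled among those 3 panels.

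In ser33 all 10 members were above BY4741 and 0 passed the test, with adjusted p of 0.79 or more. SPI1 was at 1.20 ± 0.93, SOL4 at 1.00 ± 0.60, STF2 at 0.84 ± 0.49, MSC1 at 0.73 ± 0.61 and GRE3 at 0.66 ± 0.36 (log2, SE), and the other 5 between 0.14 and 0.58. The members' median was 0.62, beside -0.02 over all genes. GRE3, HOR7, MSC1, SOL4, GAD1 and STF2 were higher in both ser33 cultures than in both BY4741 cultures, which held for 18.8% of all genes. Over all genes 0% were called higher and 0.014% lower, and 458 had an unadjusted p under 0.05, none of them a member. The difference was larger against the low BY4741 culture: against replicate 2 alone the members' median was 0.16 and 4 of 10 were below 0, and against replicate 3 alone it was 1.19. No gene of the other lists was called, and their medians were 0.44 for further stress genes, 0.23 for chaperones, 0.10 for regulators, -0.09 for glucose-repressed genes, -0.22 for ribosome biogenesis genes and -0.09 for ribosomal protein genes.

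In shm2 the 10 members were all slightly below BY4741, between -0.55 for DDR2 (-0.55 ± 0.84) and -0.09 for CTT1 (-0.09 ± 0.76), and 0 passed the test. Their median was -0.19, beside -0.02 over all genes. The cultures overlapped for all 10, whereas 14.6% of all genes were higher and 19.8% lower without overlap. Calls over all genes came to 0% higher and 0.014% lower, with 485 genes at an unadjusted p under 0.05 and 0 members among them. With both strains spread over high and low cultures, single cultures set the sign: 10 of 10 members were above 0 without replicate 2 of BY4741 (median 0.29), 9 of 10 without replicate 1 of shm2 (median 0.39), and 0 of 10 without replicate 2 of shm2 (median -1.05). The standard errors were 0.23 for HOR7 and between 0.36 and 0.93 for the others, and for 6 members a 2-fold change, 1 on the log2 scale, was within 2 standard errors. No gene of the other lists was called.

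In pyk1 the members stayed close to WT_pyk1. DDR2 was at 0.28 ± 0.05 and SPI1 at 0.61 ± 0.19, both with an unadjusted p under 0.05 and adjusted p of 0.283 and 0.331, and the other 8 were between -0.19 for MSC1 and 0.37 for SOL4. DDR2, SPI1, HOR7 and SOL4 were higher in both pyk1 cultures than in both WT_pyk1 cultures, where 22.5% of all genes were. No gene was called in either direction, 0% each, although 1018 had an unadjusted p under 0.05. The members' median was 0.12, beside -0.0045 over all genes. Relative to ACT1 it was -0.02, beside -0.14 over all genes, with 4 of the 10 changing sign. No gene of the other lists was called, with medians between -0.19 for ribosomal protein genes and 0.19 for chaperones.

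The 3 wild types were grown in YPD but differed from each other, and strain and experiment cannot be told apart in these comparisons. In WT_acs2, CTT1 fell against BY4741, at -1.87 ± 0.37 (adjusted p = 0.0187), as did SOL4, at -1.54 ± 0.43 (adjusted p = 0.0419). The other 8 ran between -1.43 ± 0.43 for MSC1 and 0.94 ± 0.82 for SPI1 and did not pass, beside 19.2% of all genes called higher and 20% lower. In WT_pyk1, SOL4 fell, at -1.99 ± 0.43 (adjusted p = 0.0331), and GAD1 fell, at -1.42 ± 0.28 (adjusted p = 0.027), with the other 8 between -1.76 ± 0.47 for MSC1 and 0.84 ± 0.61 for HSP12 and 37.1% of all genes called higher and 12.8% lower. The median over all genes was 0.28 in WT_pyk1, so the members' median of -0.51 lay further below the rest than below 0. Both comparisons share the BY4741 cultures. Leaving out either culture of WT_acs2 or of WT_pyk1 ended the calls, with 0 members and 0 genes called. Which BY4741 culture was kept changed the direction of the calls. Without replicate 2 of BY4741, 3 members were called higher and 4 lower in WT_acs2, beside 21.5% and 19.8% of all genes, and 3 higher and 2 lower in WT_pyk1, beside 34.9% and 11.5%. Without replicate 3, 0 were higher and 7 lower in WT_acs2, beside 23.5% and 24.8% of all genes, and 0 higher and 8 lower in WT_pyk1, beside 36.4% and 14.9%.

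Ribosome genes were higher in both other wild types, with 115 of 137 ribosomal protein genes and 10 of 26 ribosome biogenesis genes called higher in WT_acs2 and 84 and 22 in WT_pyk1, and none lower, among them NSR1 (2.97 in WT_acs2 and 3.89 in WT_pyk1), RPS22B (3.46 and 3.49) and RPS9A (3.06 and 3.55). Of the further stress genes 2 were higher and 10 lower in WT_acs2, and 0 higher and 12 lower in WT_pyk1, with PRX1, a mitochondrial peroxiredoxin, at -1.79 and -1.69 and SOD2, the mitochondrial superoxide dismutase, at -1.87 and -1.60. Of 24 regulators 3 were higher and 6 lower in WT_acs2 and 6 higher and 5 lower in WT_pyk1, with RAS1 at 1.31 and 2.04 and the kinase gene YAK1 at -1.38 and -1.64. Relative to ACT1, the stress genes called lower came to 2 in WT_acs2 and 0 in WT_pyk1. The regulators came to 1 higher and 0 lower in WT_acs2 and 4 higher and 0 lower in WT_pyk1. The lower calls of regulators, YAK1 included, thus ended. That scale moved the whole table up, with a median over all genes of 0.11 in WT_acs2 and 0.71 in WT_pyk1. As deposited the medians were -0.07 and 0.28. Ribosomal protein genes called higher came to 130 and 135 of 137 on the ACT1 scale, with medians of 1.72 and 1.78. The counts on that scale were not set against the share of all genes called.

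The genes outside the 10 whose log2(RPKM + 1) was most like the members' mean over the 16 cultures were PGM2, a phosphoglucomutase (Pearson's r = 0.962), NNR2, which repairs damaged NADH (0.956), CAT2, a carnitine acetyltransferase (0.952), FMP16, a mitochondrial protein of unknown function (0.94), and CYC7 (0.925). PGM2 ranged over 138 to 656 RPKM, NNR2 over 46.3 to 196 RPKM and CYC7 over 26.6 to 495 RPKM. CAT2 ranged over 6.19 to 35.5 RPKM and FMP16 over 57.7 to 493 RPKM. With each strain's mean taken out, r was between 0.91 for CYC7 and 0.98 for PGM2. Those values rest mainly on the gaps inside BY4741 and shm2, and the points share libraries and depth. PGM2 and CYC7 were also in the list of 50 further stress genes.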

How the data were processed

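Reads had been demultiplexed and aligned before deposition; the submitters' processing notes name CASAVA 1.8.2, TopHat2 2.0.13, edgeR and the build sacCer3. The authors deposited RPKM per gene in 1 table of 7125 genes and 28 libraries, with 32 further columns that hold no values; 13 genes are at 0 in every library. The paper's text gives no method for these libraries. RPKM divides by each library's own total, so genes that take up more of a library lower all others.

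Libraries of a culture were averaged as log2(RPKM + 1), a pseudocount of 1, which understates changes of low genes. Tests used limma 3.58.1 in R 4.3.3 (lmFit, eBayes with trend) with Benjamini-Hochberg adjustment over all genes, without a filter, and 0.05 as the threshold. BY4741, sam1, ser33 and shm2 shared 1 model, and every other pair had its own. The script was tested on simulated data. Other figures and counts came from Python 3.11.15, pandas 2.3.3 and BLAST+ 2.17.0. Reads per library were inferred from the steps of low RPKM values in 5766 genes of 1 exon, of which at least 99.6% fell within 0.12 of a whole read; counting error covers counting only.

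The members, the gene lists and the tests were chosen with earlier results of these data known. All 10 members are named; from each list, the 3 genes with an adjusted p under 0.05 and the largest absolute change were candidates for naming, and 5 genes of like pattern were taken by Pearson's r. Alternatives were another pseudocount, a minimum mean of 1 RPKM, single libraries, other scalings, other models, a replicate block and leaving out cultures. p-values measure the spread between cultures of a strain, which may be partly technical. In the shared model that spread was pooled over BY4741, sam1, ser33 and shm2. Each member therefore had the same standard error in sam1, ser33 and shm2 (HSP12 0.67, SPI1 0.93). The gaps inside BY4741 and shm2 thus enter the tests of sam1 and ser33. The title of the second WT_acs2 culture numbers it 2 and its description 3.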

Additional observations from a re-analysis of the deposited data

How the results depend on the processing

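The counts of members called in ser33, shm2 and pyk1 stayed at 0 under every alternative run. In acs2-ts, 4 members were called as reported and 7 with a minimum mean of 1 RPKM (2 higher, 5 lower). With that minimum 413 of 6378 genes were called higher and 5456 lower. With all 8 strains in 1 model 2 members were called, 1 higher and 1 lower, and the calls of HSP12 and STF2 ended. That model called 4.42% of all genes higher and 74.9% lower. Median-of-ratios scaling called all 10 members higher, where 28.5% of all genes were called higher and 21.9% lower. That scaling also reversed 6 members in acs2-ts, putting CTT1 at 0.92, GRE3 at 0.54, MSC1 at 1.09, SOL4 at 1.24, GAD1 at 1.14 and STF2 at 0.81. In sam1, 1 member was called as reported and 2 with the minimum mean, both lower. With that minimum 757 of 6219 genes were called lower and 865 higher. The 8-strain model called 6 members, all lower, beside 19.8% of all genes lower and 20.1% higher. The count of members was 0 with either technical library alone, beside 330 and 424 genes. It was also 0 relative to ACT1, beside 2 genes, and with only the 2 strains fitted, beside 0 genes. In WT_acs2, 2 were called as reported, beside 19.2% of all genes higher and 20% lower. Fewer were called with a pseudocount of 0.1, either technical library alone, median-of-ratios scaling or relative to ACT1, and more with the minimum mean. These shifts were not set against the share of all genes. With all 8 strains in 1 model 4 members were called, all lower. The 8-strain model called 3770 of all genes in WT_acs2, over both directions. In WT_pyk1, 2 were called as reported, beside 37.1% of all genes higher and 12.8% lower. Those calls ended relative to ACT1. Leaving out 1 culture at a time put the members' median between -0.59 and -0.02 in acs2-ts and between -1.98 and -0.65 in sam1. Against BY4741 the median lay between -1.18 and 0.34 in WT_acs2 and between -1.26 and -0.10 in WT_pyk1. Leaving out a culture moved SOL4 in acs2-ts between -0.55 and 0.018, DDR2 between -0.18 and 0.40 and SPI1 between -0.12 and 0.40. It moved SPI1 in sam1 between -2.47 and 0.028. With a lone culture on one side, that culture was assumed to vary like the others.

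Replicate numbers were shared by BY4741 and ser33 (r of their deviations -0.17) and, by the descriptions, by acs2-ts and WT_acs2 (r = 0.12); with 2 pairs each they do not show a pairing. A replicate block by number called 7 members in acs2-ts (2 higher, 5 lower), beside 426 of 7125 genes higher and 5584 lower. In sam1 it called 0 members and 0 genes, as did the crossed pairing, chosen after seeing the data. No paired analysis was possible for pyk1 because it shares 1 number with WT_pyk1. Over all genes the counts called across alternatives ran between 3595 and 6054 in acs2-ts, 0 and 2845 in sam1, 0 and 20 in ser33, 0 and 7 in shm2, 0 and 26 in pyk1, 0 and 3770 in WT_acs2, and 0 and 4072 in WT_pyk1. Each member value rested on at least 204 reads per library.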
